A study of Mus musculus with 8 samples.

Results

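Cytosolic ribosomal protein genes code for the proteins that, with ribosomal RNA, make up the small and the large subunit of the ribosome of the cytosol. They were taken from the arrays by name, as the genes called Rps or Rpl with a number (with or without the letter a or x), the P stalk genes Rplp0, Rplp1 and Rplp2, and Rpsa. In all, 76 of the 19127 genes tested met the rule, 30 of the small subunit and 46 of the large subunit. They were read by 175 probes, of which 174 were used, and each gene took its value from its probe with the highest mean signal. Rps23, Fau and Rack1 belong to the same ribosome but lie outside the rule by their names in the files.

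The cells came from the fetal liver of C57BL/6 embryos at E14.5 and are labelled early erythroid progenitors. Cells bearing lineage markers, Sca-1, CD16/32, CD41 or CD34 were depleted magnetically, and c-kit-positive cells with CD71 in the lowest 10% were collected by flow sorting. The cells then received a control virus, or 1 of 2 viruses (shRNA1, shRNA2) that each encode a short hairpin RNA targeting an RNA-binding protein, and RNA was taken after 3 days of culture. DEX, a glucocorticoid, was absent or present in the cultures with control virus and present in both shRNA cultures, which gives 4 groups, each read on 2 Agilent arrays of 1 colour. In every group, replicate 1 lay on slide 1 and replicate 2 on slide 2. Nothing in the labels tells whether the replicates of a group were cultured or taken separately, and the p-values below therefore rest on a spread between arrays that may be technical. The DEX comparison and both comparisons of an shRNA with control use the same control arrays with DEX, so their values are given side by side only.

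Ribosomal protein genes are among the most strongly expressed genes of a growing cell, and their mRNAs are controlled together. Their transcripts begin with a C followed by a run of pyrimidines, the TOP motif, through which mTOR signalling and the RNA-binding protein Larp1 set how much of each mRNA is translated. Red cell precursors depend on ribosome number to make globin. In people, loss of a single copy of many of these genes causes Diamond-Blackfan anaemia, a failure of early erythroid progenitors that is treated with glucocorticoids, and loss of RPS14 contributes to the 5q- syndrome.

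The start of transcription of a choice of the members named below is shown first, since the TOP motif begins there. RefSeq promoters (GRCm38.p6) were matched for 56 of the 76 members, and the first listed start of each gene is used. The windows run from 40 bases before to 20 bases after the annotated start, 5′ to 3′ on the strand of the gene, and capitals mark the longest run of at least 7 pyrimidines that begins with C.
Rps18: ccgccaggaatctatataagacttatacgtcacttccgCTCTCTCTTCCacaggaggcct
Rps26: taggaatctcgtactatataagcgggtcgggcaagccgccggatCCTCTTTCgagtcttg
Rps21: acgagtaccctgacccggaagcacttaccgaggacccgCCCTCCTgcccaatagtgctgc
Rpl31: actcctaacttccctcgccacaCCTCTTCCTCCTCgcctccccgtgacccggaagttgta
Rpl18: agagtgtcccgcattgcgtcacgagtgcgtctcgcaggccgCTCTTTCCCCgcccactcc
Rpl5: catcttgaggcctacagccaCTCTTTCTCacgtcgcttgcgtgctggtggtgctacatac
Rpl36a: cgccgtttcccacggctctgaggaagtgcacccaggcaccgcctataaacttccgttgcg
Rplp2: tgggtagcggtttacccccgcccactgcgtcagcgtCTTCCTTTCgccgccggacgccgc
The windows lie at chr17:33955646-33955705 (minus strand) for Rps18, chr10:128626487-128626546 (minus) for Rps26, chr2:180257339-180257398 (plus) for Rps21 and chr1:39367811-39367870 (plus) for Rpl31. Those of Rpl18, Rpl5, Rpl36a and Rplp2 lie on the plus strand at chr7:45718031-45718090, chr5:107900488-107900547, chrX:134585614-134585673 and chr7:141447611-141447670. In Rps18 and Rps21 the run spans the annotated start, whereas in Rpl5 and Rpl31 it lies before it. The window of Rpl36a holds no such run. Of other members described below, Rplp0, Rpl11, Rpsa and Rps19 hold none either, while Rps7, Rps24, Rpl15 and Rpl27a hold one. Their windows are not shown, so the windows above do not give the share among the members. On the sense strand, 33 of the 56 members (58.9%) held a run in this window, against 27.6% of 27025 genes with a RefSeq promoter. Over the 300 bases around the start and on both strands, CCGGAA was present in 51.8% of the members and 15.2% of all promoters, ATGGCG in 26.8% and 9.24%, and TATAAA in 8.93% and 14.2%. These are matches of letters, not binding sites, and the array data do not bear on them.

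The ribosomal protein genes, each read by its brightest probe, stood at the top of the brightness range on every array. The ranks below set that probe among all probes of the array, so they follow in part from the choice of probe. Some other probes of the same genes were far dimmer, as described further below. The median member lay between percentile 99.46 and 99.58 of all probes, and on each of the 8 arrays 74 of the 76 members were among the brightest 5% of probes. All 76 chosen probes were well above background on all 8 arrays and none was saturated. Their mean signals ran from 788.3 for Rpl21 and 14040 for Rps21, the dimmest members, and 57150 for Rpl4, the next, to 465300 for Rpl37a. Of the members, 21 had 1 probe and 55 had several, up to 7 for Rpl17. Most of these genes have near-identical processed copies elsewhere in the genome, so a probe may read more than 1 locus. The chosen probes of Rpl31, Rps27 and Rps29 are placed by the files (mouse build mm9) on chromosomes 12, 9 and 2, away from the genes themselves. That of Rps2 lies on the chromosome of its gene but 18 Mb from the other Rps2 probe (chr17:42864841-42864900 against chr17:24857583-24857642). The values of these 4 members are uncertain.

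The 8 arrays differed in brightness, and the members did not follow those differences in full. The signal at the 75th percentile of an array was 920.9 and 1749 without DEX, 872.9 and 1867 with DEX, 445.6 and 1315 with shRNA1, and 476.9 and 1486 with shRNA2, in the order slide 1 and slide 2. Each shRNA array on slide 1 was thus the dimmest of its group, and both were dimmer than any control array. The median signal of the members was 256400 and 324000 without DEX, 224700 and 344300 with DEX, 137600 and 295600 with shRNA1, and 132900 and 294500 with shRNA2. A level below is the log2 signal minus the 75th percentile of its array, so it is relative to the other genes of that array and does not show the amount of mRNA per cell. On this scale the median member stood at 8.12 and 7.53 without DEX, 8.01 and 7.53 with DEX, 8.27 and 7.81 with shRNA1, and 8.12 and 7.63 with shRNA2. Slide 2 was lower in every group, in 75, 74, 65 and 68 of the 76 members. From slide 1 to slide 2 the 75th percentile went up by 0.93 to 1.64 log2 units, the 25 dimmest members by 0.58 to 1.46 and the 25 brightest by 0.18 to 0.79, so brighter members gained less. The median standard deviation (SD) between the 2 arrays of a group was 0.35 for members and 0.52 for all genes.

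**Figure D1:**
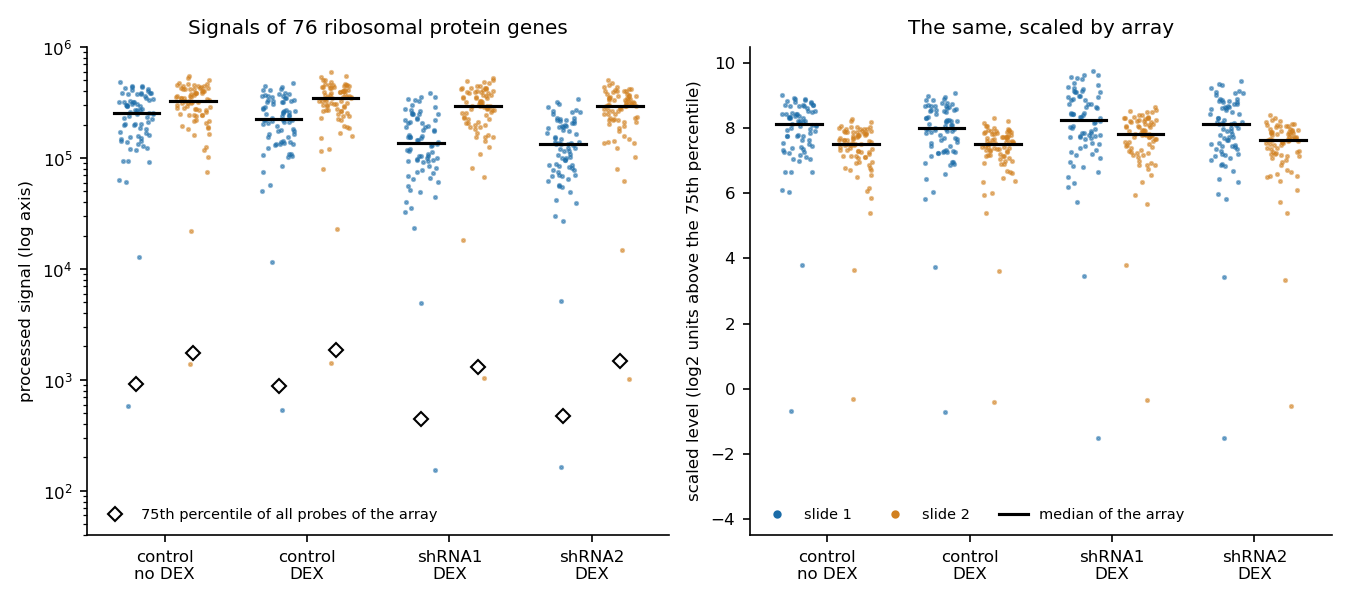
Processed signal (left, log axis) and level scaled by the 75th percentile (right, log2 units) of the 76 ribosomal protein genes on the 8 arrays, 1 point per gene, with the median of each array as a bar. Diamonds give the 75th percentile of all probes, which lies between 445.6 and 1867; the scaled medians lie between 7.53 and 8.27, lower on slide 2 in every group.

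RNA of the labelled cells and of other blood cells was present in all groups. Every marker on the erythroid list, from Gata1 and Klf1 to Slc4a1, was well above background on all 8 arrays. Zfp36l2, the RNA-binding protein as known from the published study of this design, had levels of 3.61 and 3.98 without DEX, 5.70 and 5.56 with DEX, 4.18 and 4.05 with shRNA1, and 4.25 and 3.86 with shRNA2. Markers of several cell types moved with the groups, and none of them was called by limma. All 16 measured neutrophil markers were higher with each shRNA than in control cells with DEX, and 13 of 16 were lower with DEX than without. Relative to all genes, the DEX difference of these markers was -0.002 on slide 1 (7 of 16 higher) and -1.55 on slide 2 (1 of 16 higher). Their summed linear level was 44.9 to 202 without DEX, 42.4 to 74.3 with DEX, 145 to 162 with shRNA1 and 103 to 622 with shRNA2. All 11 megakaryocyte markers were higher with each shRNA, and 10 of 11 were lower with DEX. They summed to 55.5 to 77.8 without DEX, 17.7 to 31.1 with DEX, 22.7 to 84.7 with shRNA1 and 14.3 to 213 with shRNA2, so with shRNA2 the array on slide 2 was below both controls with DEX. Of the monocyte markers, 8 of 17 were measured, with 8 higher with shRNA1, 7 higher with shRNA2 and 7 lower with DEX, and sums of 4.23 to 5.69, 1.6 to 3.49, 3.64 to 9.72 and 2.21 to 14.8 in the same order. With DEX the monocyte list stood at -0.23 relative to all genes on slide 1 and at -1.80 on slide 2. Mast cell markers summed to 7.66 to 13.4 without DEX and 26.5 to 69.8 with DEX (3 of 7 higher, 4 lower), and to 19.5 to 57.9 and 21.7 to 46.2 with the shRNAs, while lymphoid and hepatocyte markers summed to at most 3.81 and 3.26 on any array. The 14 entries of the erythroid list (Epb42 under both its names) were mostly lower with DEX (13 of 14, median -0.69) and higher with shRNA1 (13 of 14, median 0.77), but with shRNA2 7 were higher and 7 lower (median 0.003). The part of these shifts in the values of the ribosomal protein genes was not tested. In such bulk samples, fewer cells of a type and less RNA per cell cannot be told apart.

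With DEX, the ribosomal protein genes differed from untreated control cells by a small amount that was narrow across the family. The median difference of the 76 members was -0.03 log2 units, against -0.06 for all genes. Their differences ran from -0.22 for Rpl27a to 0.24 for Rps27a, a ubiquitin fusion of the small subunit. The interquartile range was 0.08 for the members and 0.39 for all genes, and 43.8% of all genes differed by more than the member that differed most. No member reached a 2-fold difference, against 6.97% of all genes. In the same comparison the erythroid, neutrophil and megakaryocyte marker lists had medians of -0.69, -0.81 and -1.44. Relative to all genes they stood at -0.70, -0.002 and -0.63 on slide 1 and at -0.55, -1.55 and -2.14 on slide 2. The part of these markers in the values of the members was not tested.
No member passed an adjusted p of 0.05 by limma, and no gene at all did (0% of 19127 called). At an unadjusted p below 0.05, 0 members and 600 genes were counted. With the slide as a block, 45 genes (0.235%) were called and again no member, and 0 members had an unadjusted p below 0.05 against 9.63% of all genes (lowest adjusted p of a member 0.933). The 95% interval of the difference lay within 2-fold either way for 35 of the 76 members, and for all 76 with the slide as a block, so larger shifts are not covered for the others in the unblocked fit. Relative to all genes the members stood at 0.03, with 0.015 on slide 1 alone and -0.007 on slide 2 alone. Leaving out single arrays gave 0.24 and -0.23 without replicate 1 and replicate 2 of the cells without DEX. It gave -0.23 and 0.25 without those of the cells with DEX. Leaving out 1 array sets 2 slides against 1, and the members were lower on slide 2 in every group. Such values, here and in the other comparisons, therefore also hold the gap between slides.

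Within the small subunit, 9 genes were higher and 21 lower with DEX, with a median of -0.04. Within the large subunit, 7 were higher and 39 lower, with a median of -0.03. Relative to all genes these medians were 0.02 and 0.03. Rps27a had levels of 8.45 and 7.84 without DEX and 8.56 and 8.21 with DEX, so it was higher on both slides while the groups overlapped. Of its 3 probes only the one used, at 0.24, was higher with DEX, and the others gave -0.105 and -0.089. Rpl27a had 8.07 and 7.78 without DEX and 7.97 and 7.44 with DEX, lower on both slides and again overlapping. The 3 probes of Rpl27a ran from -0.221, for the one used, to 0.025. Rpl36a, a large subunit protein near the exit site for tRNA, was the only member whose groups did not overlap on this scale. It had 7.0 and 6.97 without DEX and 6.91 and 6.90 with DEX, a difference of -0.08 (standard error, SE, 0.27; adjusted p by limma 1). Arrays did not overlap in the lower direction for 15.6% of all genes and in the higher direction for 10.8%, beside 1.32% of the members in the lower direction and 0% in the higher. With quantile normalization the counts were 11 members higher and 4 lower, against 13.4% of all genes in either direction, and Rpl36a differed by -0.007.

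**Figure D2:**
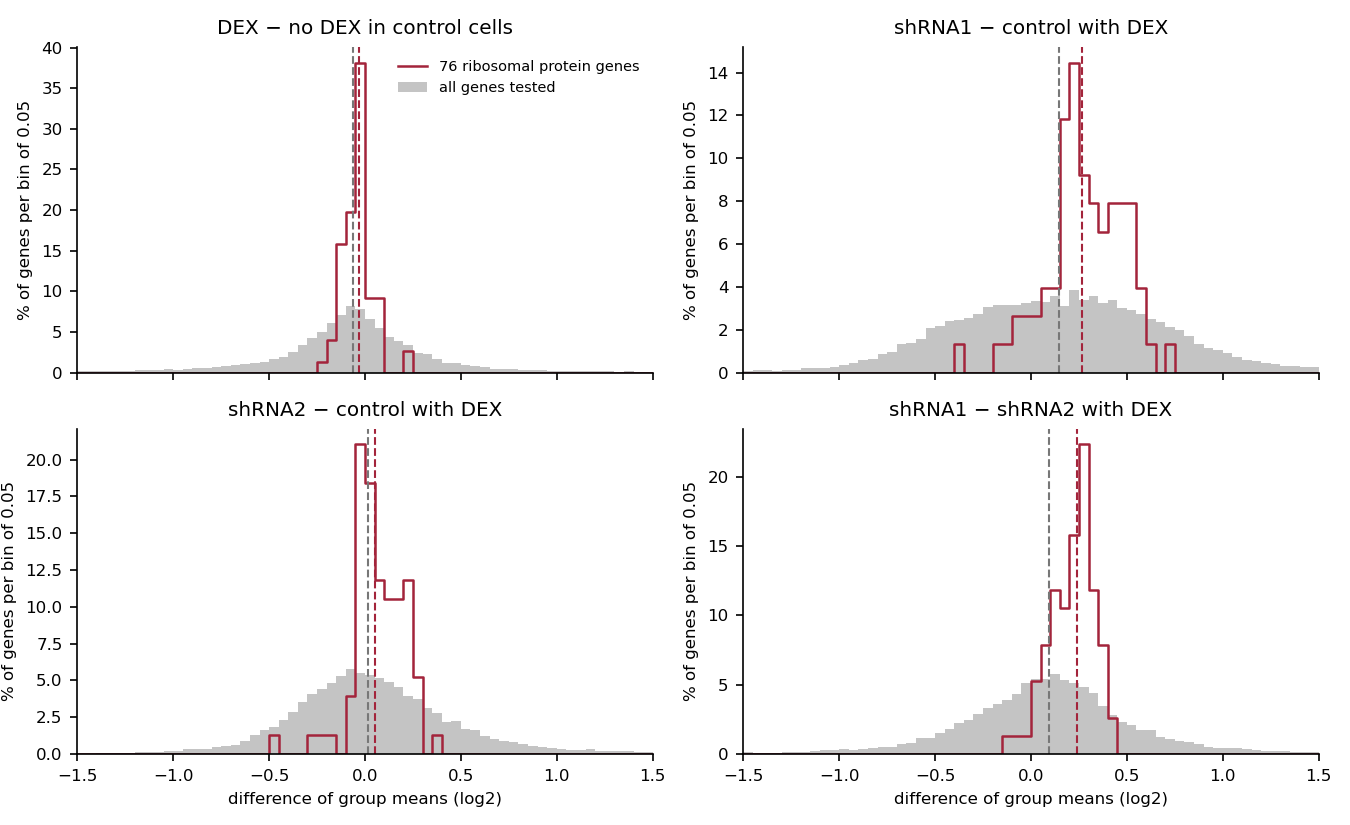
Differences between groups (log2, bins of 0.05) for all 19127 genes in grey and the 76 ribosomal protein genes as a red outline, as a percentage of each set, with dashed lines at the medians. The members are narrowest for DEX (median -0.03) and lie to the right of the all-gene median for shRNA1 (0.26 against 0.15) and for shRNA1 against shRNA2 (0.24 against 0.09).

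With shRNA1, ribosomal protein genes were mostly higher than in control cells with DEX, by a median of 0.26 log2 units. All genes were shifted the same way on this scale by 0.15, so the members stood 0.12 above them, and 61 of 76 lay above the all-gene median. Differences ran from -0.38 for Rpl21 to 0.72 for Rpsa, and 69 members were higher and 7 lower. No member reached 2-fold, against 8.18% of all genes.
No member and no gene passed adjusted p 0.05 by limma (0% called), with 0 members and 396 genes at an unadjusted p below 0.05. With the slide as a block the count of calls was also 0 (0%), and the lowest adjusted p of a member was 0.262. In that fit 16 of the 76 members had an unadjusted p below 0.05, all of them higher, against 17.1% of all genes in both directions together. The share of all genes was not split by direction, and 59.9% of all genes had a difference above 0. On slide 1 alone the members stood 0.02 above all genes and on slide 2 alone 0.24. The shift also depended on the scaling: with quantile normalization the members stood at -0.04 relative to all genes, and in the authors' deposited values at -0.09. Quantile normalization gives every array the same distribution of signals, and most members lie near its upper end. It can therefore remove a shift that they share, and its values here and below are not an independent check. Without replicate 2 of the control cells with DEX the members stood at -0.06, and without replicate 1 at 0.31. Without replicate 1 of shRNA1 they stood at -0.004, and without replicate 2 at 0.20.

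The small subunit had a median of 0.24 with shRNA1, with 28 of 30 genes higher, and the large subunit 0.28, with 41 of 46 higher. Rpsa, the small subunit protein also known as the laminin receptor, had levels of 8.69 and 7.74 in control cells with DEX and 9.63 and 8.24 with shRNA1. It was higher on both slides, by 0.94 and 0.49, but the slides differed from each other by as much and the groups overlapped (SE 0.71). Its difference with quantile normalization was 0.18.
Among members whose groups did not overlap, 3 were higher (3.95% of members against 16.5% of all genes) and 2 were lower (2.63% against 8.3%). With quantile normalization the balance turned, to 2 higher and 10 lower, against 12.8% and 11.8% of all genes.
Rpl31, a protein at the exit of the peptide tunnel, had 7.46 and 7.17 in control cells with DEX and 7.72 and 7.47 with shRNA1. Both shRNA1 arrays were above both controls, by a difference of 0.28 (SE 0.35, adjusted p by limma 0.929). The 5 probes of Rpl31 ran from -0.426 to 0.314, so they differed in sign, and the one used is placed away from the gene. Rps18, in the head of the small subunit, had 7.57 and 7.35 in those controls and 7.80 and 7.59 with shRNA1, a difference of 0.23 (SE 0.30). Rpl18 of the large subunit had 7.70 and 7.44 in controls and 7.71 and 7.75 with shRNA1, a difference of 0.16 (SE 0.29). With quantile normalization these 3 differences were 0.02, -0.07 and -0.09, so the sign of Rps18 and Rpl18 depends on the scaling.

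The lower members with shRNA1 whose arrays did not overlap were Rpl5 and Rpl36a, and these kept their sign with quantile normalization. Rpl5 binds the 5S ribosomal RNA together with Rpl11, and this particle holds back Mdm2 when ribosome assembly is disturbed. Rpl5 had 6.03 and 5.94 in control cells with DEX and 5.72 and 5.94 with shRNA1. The shRNA1 array on slide 1 stood apart, and the difference of -0.16 (SE 0.28; adjusted p by limma 0.929) was -0.31 on slide 1 and -0.01 on slide 2. Rpl36a had 6.91 and 6.90 in controls and 6.65 and 6.88 with shRNA1, a difference of -0.14 (SE 0.27), again mainly on slide 1. With quantile normalization the differences were -0.25 and -0.31.

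With shRNA2, the ribosomal protein genes lay close to control cells with DEX. The median difference was 0.052 against 0.015 for all genes, with 53 members higher and 23 lower, and 50 of 76 lay above the all-gene median. Differences ran from -0.49 for Rpl21 to 0.36 for Rpsa, and none reached 2-fold, against 5.34% of all genes.
No member and no gene was called by limma (0% of genes), with 0 members and 245 genes at an unadjusted p below 0.05. With the slide as a block 1 gene was called (0.00523%), not a member, 0 members had an unadjusted p below 0.05 against 5.77% of all genes, and the lowest adjusted p of a member was 0.776. The 95% interval lay within 2-fold for 37 members, and for 75 with the block. Relative to all genes the members stood at 0.02 on slide 1 and 0.09 on slide 2, and at -0.007 with quantile normalization. Without replicate 1 or replicate 2 of the control cells with DEX they stood at 0.21 and -0.16 (0.037 over all arrays), and without those of shRNA2 at -0.15 and 0.16.

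In the small subunit 19 of 30 genes were higher with shRNA2 and in the large subunit 34 of 46, with medians of 0.05 and 0.04. Arrays did not overlap for 0 members in the higher direction, against 7.53% of all genes, and for 3 in the lower direction (3.95% against 7.89%). With quantile normalization 1 member was higher and 9 were lower without overlap, against 7.71% and 10.2% of all genes.
Rps21, which takes part in the last steps of small subunit maturation, had 3.74 and 3.60 in control cells with DEX and 3.44 and 3.33 with shRNA2, a difference of -0.28 (SE 0.29; adjusted p by limma 1). It was lower by a like amount on both slides, -0.29 and -0.27, and by -0.26 with quantile normalization. Rpl5 had 5.84 and 5.73 with shRNA2, below both control arrays, and differed by -0.20 (SE 0.28), with -0.20 on slide 1 and -0.21 on slide 2. Rpl36a had 6.86 and 6.89, a difference of -0.03 (SE 0.27) that is smaller than its SE. Rps21 with shRNA1 had 3.47 and 3.81, on either side of the controls.

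The 2 shRNA groups were compared directly, and the ribosomal protein genes were higher with shRNA1 than with shRNA2 by a median of 0.24, against 0.09 for all genes. Of the 76 members, 73 were higher and 3 lower, and 63 lay above the all-gene median. Differences ran from -0.10 for Rpl36a to 0.42 for Rpl36, and none reached 2-fold, against 6.09% of all genes.
No member and no gene passed adjusted p 0.05 by limma (0%), with 0 members and 438 genes at an unadjusted p below 0.05. With the slide as a block the count was 0 (0%), 0 members had an unadjusted p below 0.05 against 10.6% of all genes, and the lowest adjusted p of a member was 0.523. The members stood 0.12 above all genes on slide 1 and 0.15 on slide 2, and at -0.003 with quantile normalization. The value over both slides, 0.145, was -0.02 and 0.23 without replicate 1 and replicate 2 of shRNA1, and 0.25 and -0.09 without those of shRNA2.

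Arrays did not overlap for 11 members, all higher with shRNA1, against a background of 11.2% of all genes in that direction, and for 0 members in the lower direction, against 5.2%. With quantile normalization 5 were higher and 2 lower, against 10.7% and 7.25% of all genes, so the single direction was not present on that scale. The 11 included Rps18, Rps21, Rps26, Rpl17, Rpl18 and Rpl27. Rps18 had 7.80 and 7.59 with shRNA1 and 7.42 and 7.31 with shRNA2, a difference of 0.33 (SE 0.30; adjusted p by limma 1). Rps26, which lies where mRNA leaves the small subunit, had 8.35 and 8.21 with shRNA1 and 8.20 and 7.82 with shRNA2, a difference of 0.27 (SE 0.33). The difference of Rps26 is below its SE and that of Rps18 is slightly above it, and with quantile normalization they were 0.12 for Rps18 and 0.07 for Rps26.

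**Figure D3:**
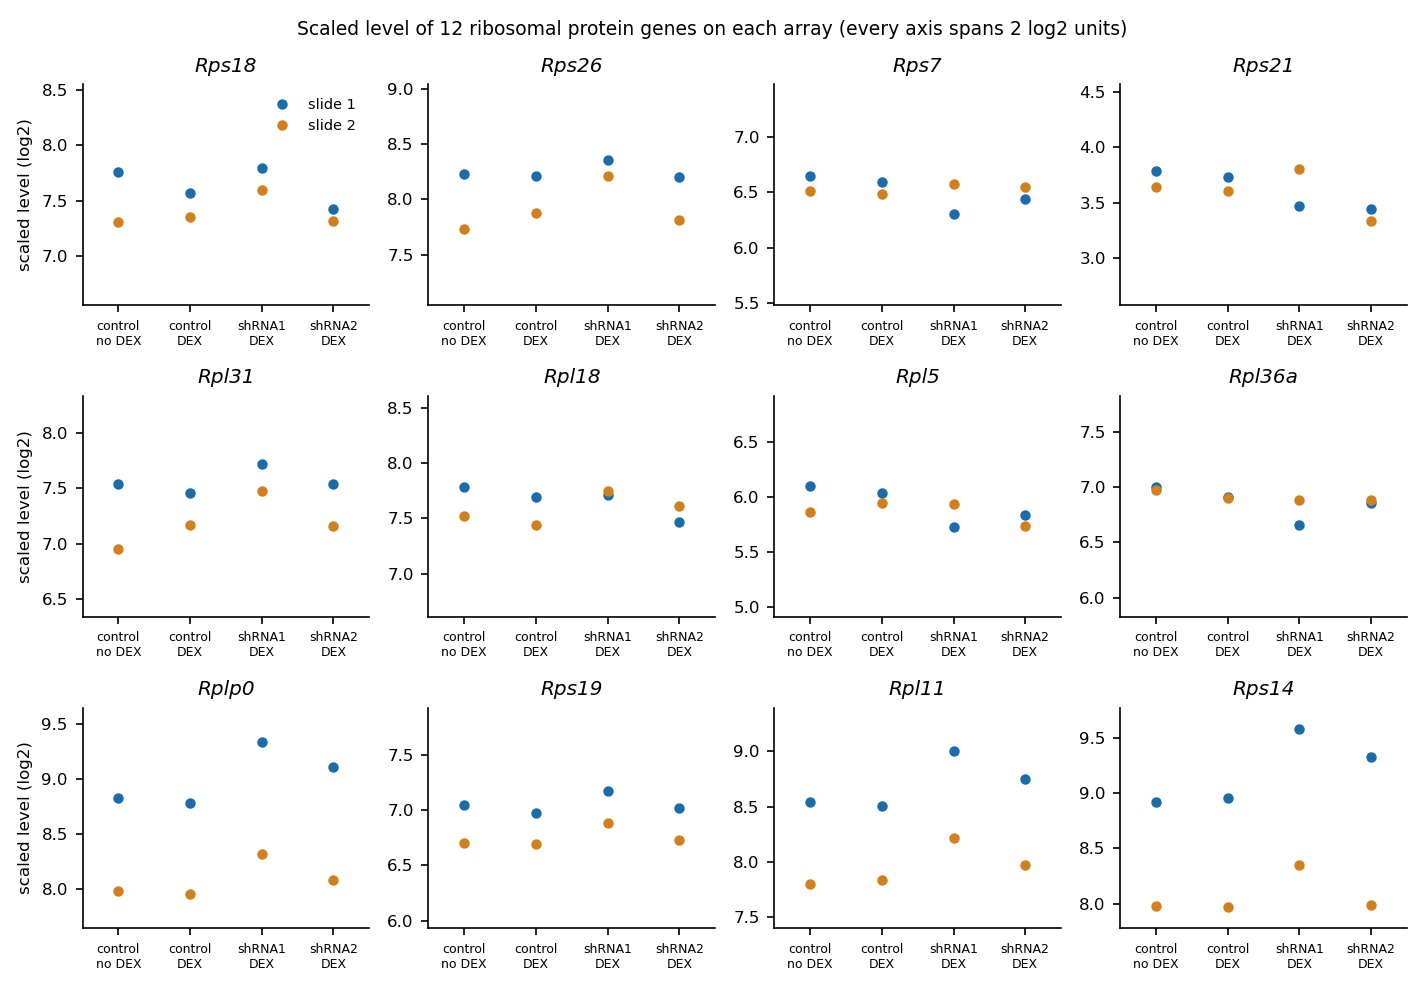
Scaled level (log2) of 12 ribosomal protein genes on each of the 8 arrays, 1 point per array, blue for slide 1 and orange for slide 2, with every axis spanning 2 log2 units. In Rplp0, Rpl11 and Rps14 the gap between slides is wider than the gap between groups; for Rps14 the levels are 8.95 and 7.97 in control cells with DEX and 9.58 and 8.35 with shRNA1.

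The P stalk, formed by Rplp0 and pairs of Rplp1 and Rplp2, recruits the elongation factors to the ribosome. Rplp0, its anchor, had levels of 8.82 and 7.98 without DEX, 8.78 and 7.96 with DEX, 9.34 and 8.33 with shRNA1, and 9.11 and 8.09 with shRNA2. Rplp1 had 8.67 and 8.02, 8.69 and 7.93, 9.13 and 8.32, and 8.82 and 8.07 in the same order. Rplp2 had 8.61 and 7.99, 8.68 and 7.89, 8.98 and 8.26, and 8.75 and 8.09. The 3 genes followed each other, highest with shRNA1 on both slides. Their median difference was -0.03 with DEX, 0.41 with shRNA1, 0.13 with shRNA2 and 0.24 for shRNA1 against shRNA2, with SEs of 0.47 to 0.59 (each adjusted p by limma 0.929 or above), and relative to all genes with quantile normalization it was 0.01, -0.06, -0.01 and -0.07.

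The 21 members linked to Diamond-Blackfan anaemia or the 5q- syndrome in people lay near the whole family by their medians. Their median difference was -0.02 with DEX (7 higher, 14 lower), 0.26 with shRNA1 (19 higher, 2 lower), 0.03 with shRNA2 (14 higher, 7 lower) and 0.24 between the shRNAs (20 higher, 1 lower). Over all 76 members the medians were -0.03, 0.26, 0.05 and 0.24. None of the 21 was called in any comparison.
Rps19, the gene most often mutated in that anaemia, had 7.05 and 6.71 without DEX, 6.97 and 6.69 with DEX, 7.17 and 6.88 with shRNA1, and 7.02 and 6.73 with shRNA2. It differed by -0.05 with DEX, 0.20 with shRNA1 and 0.04 with shRNA2 (SE 0.31; adjusted p by limma 1, 0.929 and 1). Rpl11, the partner of Rpl5 on the 5S RNA, had 8.54 and 7.80 without DEX, 8.50 and 7.83 with DEX, 9.0 and 8.21 with shRNA1, and 8.75 and 7.97 with shRNA2. Rpl11 was thus higher with both shRNAs on both slides, by 0.44 and 0.19 (SE 0.50), where Rpl5 was lower; with quantile normalization Rpl11 stood at -0.003 with shRNA1 and 0.005 with shRNA2, and Rpl5 at -0.25 and -0.21.
Rps14 had 8.92 and 7.98 without DEX, 8.95 and 7.97 with DEX, 9.58 and 8.35 with shRNA1, and 9.33 and 7.99 with shRNA2. Its differences were 0.01, 0.50 and 0.19 (SE 0.69), less than the gap between slides in any group. The members of this list at its ends were Rps29 (-0.15) and Rpl31 (0.07) with DEX, Rpl5 (-0.16) and Rpl35 (0.57) with shRNA1, Rpl5 (-0.20) and Rps24 (0.27) with shRNA2, and Rps7 (-0.05) and Rpl35 (0.39) between the shRNAs. Rps7, which with Rpl5 and Rpl11 can bind Mdm2, had 6.59 and 6.49 in control cells with DEX, 6.31 and 6.57 with shRNA1, and 6.44 and 6.55 with shRNA2, so its groups overlapped.

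The size of a member's difference went with the brightness of its probe in both shRNA comparisons. Across the 76 members, which share the arrays, the Spearman correlation between mean signal and difference was 0.66 with shRNA1 and 0.65 with shRNA2, but 0.175 with DEX. With shRNA1 the 25 dimmest members stood 0.05 above all genes, the 26 middle ones 0.11 and the 25 brightest 0.29. With shRNA2 the same tiers stood at -0.04, 0.04 and 0.16. With quantile normalization the tiers were at -0.02, -0.05 and -0.03 with shRNA1 and at -0.01, -0.01 and 0.01 with shRNA2, so the order by brightness was not present on that scale. That scale fits the upper end of all arrays to each other, so it can itself remove such an order.

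**Figure D4:**
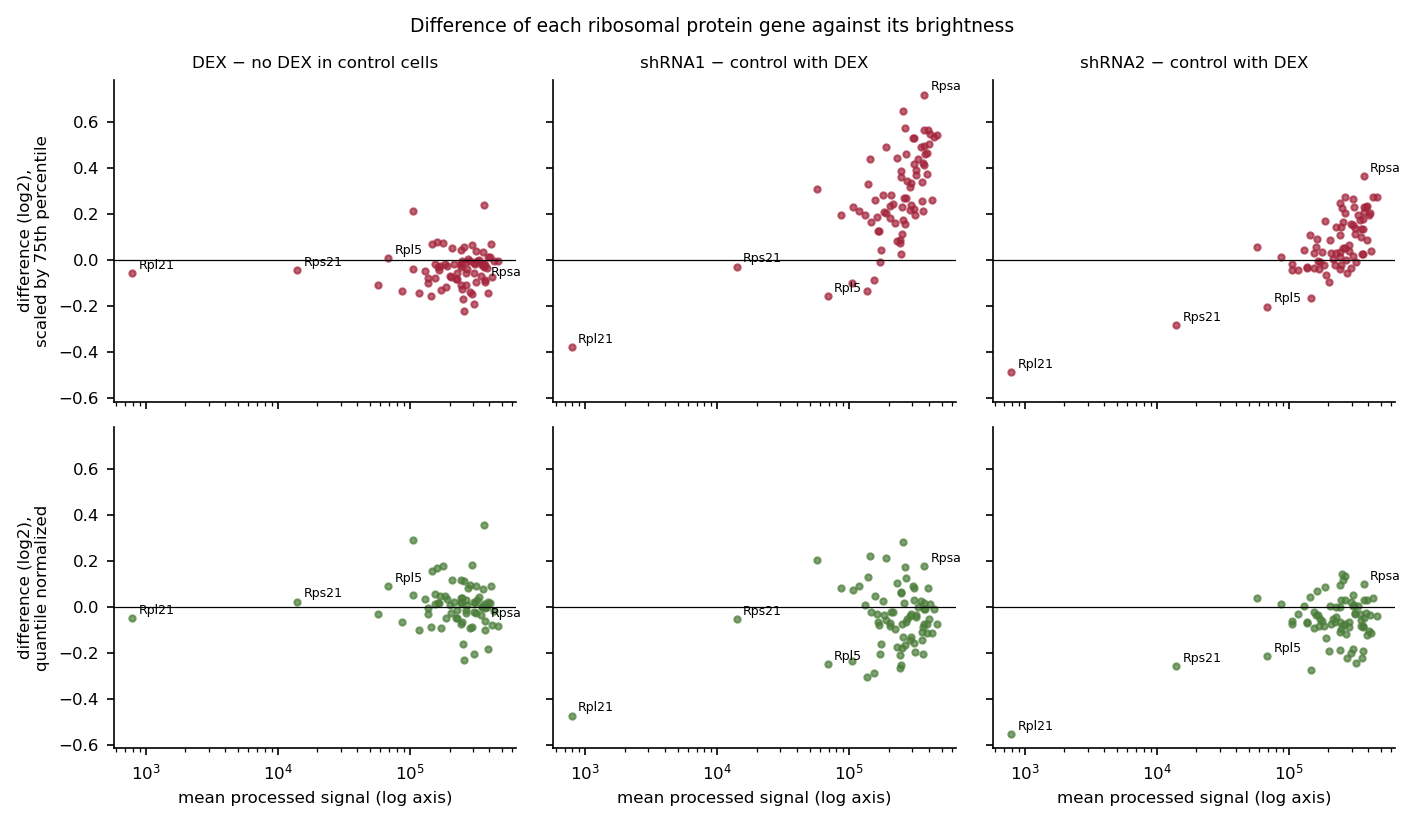
Difference of each ribosomal protein gene (log2) against its mean processed signal (log axis) for 3 comparisons, scaled by the 75th percentile (top, red) and quantile normalized (bottom, green), with 4 genes named. Brighter genes have larger differences with each shRNA in the top row (Spearman 0.66 and 0.65), while Rpl21, at a signal of 788.3, is low in both rows.

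Probes of the same gene gave the same picture. Of 54 members with several usable probes, the dimmest probe gave a lower difference than the brightest in 44 with shRNA1, in 44 with shRNA2 and in 32 with DEX, by a median of -0.21, -0.12 and -0.03. The widest gap was in Rpl15, a large subunit protein, whose probe with a mean signal of 229700 gave 0.08 with shRNA1 and 0.03 with shRNA2. The other Rpl15 probe, at a signal of 5380, gave -0.76 and -0.74. In Rps24 the probe used, at 266900, gave 0.46 with shRNA1, and the probe at 1350 gave -0.13. Rpl21 was read only by dim probes: the one used, at 788.3, gave -0.38 with shRNA1 and -0.49 with shRNA2, and the other, at 699.1, gave 0.03 and -0.24. Its levels were -0.67 and -0.32 without DEX, -0.71 and -0.40 with DEX, -1.52 and -0.34 with shRNA1, and -1.53 and -0.55 with shRNA2, so both shRNA arrays on slide 1 stood apart. Rpl21 was also the member whose profile over the 8 arrays was least like the median of the family (Pearson r -0.81).

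Over the 8 arrays, 72.4% of the members had a Pearson correlation above 0.9 with the median of the family, against 12.3% of all genes. With quantile normalization these shares were 15.8% and 17.8%, so the profile shared by the family was not set apart on that scale. Such scaling can itself remove a profile shared by very bright genes. The genes outside the family whose 8 values were most like its median were Anks3 (r 0.997) and the probes A_55_P2053733 and A_55_P2010018, which carry no gene symbol here (r 0.997 and 0.996). These correlations describe 8 arrays that share slides and scaling. The members also make up the median that they were set against, which the other genes do not.

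Ribosome assembly factors had mostly negative differences with both shRNAs, mainly on slide 1, and none passed the test. Of the 68 listed assembly factors, which process ribosomal RNA and fold it with the proteins in the nucleolus, 65 were measured. With shRNA1, 54 were lower and 11 higher, with a median of -0.48 (-0.63 relative to all genes), and with shRNA2, 59 were lower and 6 higher, with a median of -0.26 (-0.27 relative). With DEX their median was 0.001, with 34 higher and 31 lower. Relative to all genes the shRNA1 median was -0.93 on slide 1 and -0.22 on slide 2, and the shRNA2 median -0.67 on slide 1 and 0.12 on slide 2, so with shRNA2 the direction came from slide 1. With quantile normalization the relative medians were -0.50 and -0.18. No assembly factor was called in any comparison, with or without the block, and the difference between this list and the ribosomal proteins was not tested.
The median assembly factor had levels of 2.90 and 3.20 without DEX, 2.70 and 3.29 with DEX, 1.75 and 3.26 with shRNA1, and 1.80 and 3.52 with shRNA2. Both shRNA arrays on slide 1, the dimmest arrays, stood below every other array.
Rrs1, needed to load the 5S particle of Rpl5 and Rpl11 into the large subunit, had 1.85 and 2.55 in control cells with DEX, 0.17 and 2.18 with shRNA1, and 0.70 and 2.76 with shRNA2, a difference of -1.03 (SE 0.90; adjusted p by limma 0.929) with shRNA1. Tsr2, the carrier that delivers Rps26 and is itself mutated in some families with the anaemia, had -2.35 and -2.03 in those controls, -3.66 and -2.26 with shRNA1, and -4.04 and -2.19 with shRNA2, a difference of -0.93 (SE 0.74; adjusted p by limma 1) with shRNA2. Utp14a and Gnl2 were at the other end, with 0.23 (Utp14a) for shRNA1 against control and 0.36 (Gnl2) for shRNA1 against shRNA2.

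Mitochondrial ribosomal proteins, which make up the separate ribosome of that organelle, were described by the same counts. Of 74 measured, 64 were lower and 10 higher with shRNA1 (median -0.28, or -0.43 relative to all genes) and 63 were lower and 11 higher with shRNA2 (median -0.18, or -0.20 relative). The relative medians were -0.76 and -0.14 on slides 1 and 2 with shRNA1 and -0.56 and 0.12 with shRNA2. With DEX the median was -0.10, with 58 lower and 16 higher. On slide 1 alone 5 of the 74 were higher with DEX and on slide 2 alone 52. The relative medians with DEX were -0.22 and 0.09, so the direction differed between the slides. The median gene had levels of 3.18 and 3.99 in control cells with DEX, 2.63 and 3.92 with shRNA1, and 2.72 and 4.2 with shRNA2.
RNA polymerase I and its cofactors, which transcribe ribosomal RNA, had 13 of 15 genes measured, with medians of -0.04 with DEX, -0.21 with shRNA1 and -0.08 with shRNA2 (0.02, -0.36 and -0.09 relative to all genes). The gene at the low end with shRNA1 was Znrd1, a polymerase subunit, at -1.0, and at the high end Taf1c, of the promoter selectivity factor, at 0.38.

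**Figure D5:**
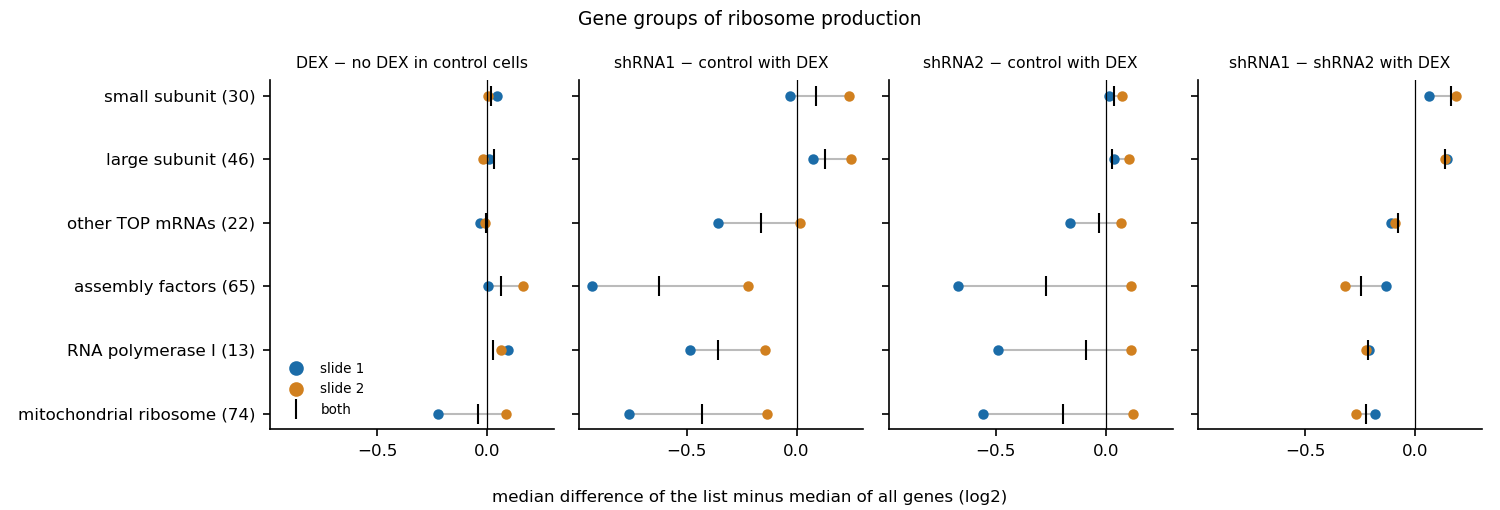
Median difference of 6 gene groups minus the median of all genes (log2), on slide 1 (blue), on slide 2 (orange) and over both (black bar), with the number of measured genes in brackets. The subunits stay between -0.03 and 0.25, while assembly factors lie at -0.93 and -0.22 with shRNA1 and at -0.67 and 0.12 with shRNA2.

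Other mRNAs of the TOP class, mostly translation factors, lay below the median of all genes with shRNA1. Their 22 measured genes had medians of -0.06 with DEX, -0.02 with shRNA1, -0.02 with shRNA2 and 0.015 between the shRNAs, or -0.004, -0.16, -0.03 and -0.08 relative to all genes. With shRNA1, 8 of 22 lay above the all-gene median, and the relative median was -0.36 on slide 1, 0.02 on slide 2 and -0.16 with quantile normalization. The exception by size was Vim, the intermediate filament vimentin, with levels of 1.66 and 2.23 without DEX, 4.35 and 4.09 with DEX, 3.34 and 3.52 with shRNA1, and 4.36 and 3.65 with shRNA2. The groups without and with DEX did not overlap, and the difference was 2.28 (SE 0.38; adjusted p by limma 0.334). Pabpc4, a poly(A)-binding protein, was the lowest of the list with DEX (-0.54) and the highest with shRNA1 (0.87).
Of the regulators of ribosomal protein synthesis, 33 of 35 were measured, with medians of -0.07 with DEX, 0.16 with shRNA1 and -0.03 with shRNA2 (-0.01, 0.02 and -0.05 relative to all genes). Myc, the transcription factor that drives ribosome production, had 2.26 and 2.87 without DEX, 2.67 and 2.96 with DEX, 1.90 and 2.52 with shRNA1, and 2.27 and 3.17 with shRNA2. The shRNA1 arrays of Myc were below both controls with DEX, by -0.61 (SE 0.45; adjusted p by limma 0.929). Mycn was at the low end with DEX, at -2.14 (SE 1.05), and at the high end with shRNA2, at 1.81, where its arrays stood at -0.79 and -4.01. Mxd1, which competes with Myc for their partner Max, was at the high end with shRNA1, at 1.23 (SE 1.40), less than its SE. The mTOR inhibitor Deptor was at the high end with DEX (0.97) and the low end with shRNA1 (-1.19).
Ribosome rescue factors, which free stalled ribosomes, had 14 of 15 measured, with medians of 0.05, -0.06 and -0.06 for DEX, shRNA1 and shRNA2 (0.11, -0.20 and -0.08 relative to all genes). The GTPase gene Gtpbp2 was at the low end with DEX (-1.27) and at the high end with shRNA1 (1.23). None of these regulators or factors was called.

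Paralogs and other ribosomal protein genes outside the rule had 8 measured genes, with medians of -0.03 with DEX, -0.09 with shRNA1 and -0.15 with shRNA2 (0.03, -0.23 and -0.17 relative to all genes). Rpl22l1, the paralog that can stand in for Rpl22, had 6.27 and 6.59 in control cells with DEX and 5.75 and 6.33 with shRNA2, at -0.40 (SE 0.37; adjusted p by limma 1). Rpl7l1 was at the low end with shRNA1, at -0.69.
Globins, the main product of these ribosomes in red cells, had 7 measured genes, whose separate values are uncertain because the copies are alike. Their median was -0.01 with DEX, 0.97 with shRNA1 and 0.49 with shRNA2, with 7 of 7 higher with each shRNA and none called. The median of the 7 globin levels was 7.79 and 6.87 without DEX, 7.20 and 5.97 with DEX, 8.20 and 6.91 with shRNA1, and 7.48 and 5.93 with shRNA2. On slide 2 the shRNA2 array was above its control for 6 of the 7, the exception being Hbb-bs (-0.04), and relative to all genes the list stood at 0.76 on slide 1 and 0.16 on slide 2 with shRNA2.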

How the data were processed

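RNA of 8 samples, labelled with Cy3, was read on 1-colour arrays. Per the file headers, the authors quantified spots with Agilent Feature Extraction 10.1.1.1, whose processed signal is the intensity used here, on a linear scale. In the submitters' processing notes Agilent Feature Extraction and limma stand with no version. A second deposited table holds log2 values; how the authors made it is not given in the sources used here, and its columns have medians of 6.67 to 6.70 and run in the direction of the scanner signal with no centring by gene, and it was an alternative only.

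Controls (1377 of 44397 spots per array) and spots with an outlier mark were dropped, repeated spots of a probe averaged, and 441 of 39429 probes without a usable spot on every array set aside. Each log2 signal had the 75th percentile of its array subtracted. A probe was tested where both arrays of some group had it well above background, and the probe with the highest mean signal stood for its gene. All 8 arrays entered 1 fit by limma 3.58.1 (lmFit, eBayes; R 4.3.3, data.table in version 1.17.8), with Benjamini-Hochberg adjustment over 19127 genes. SE is that of the fit, intervals are 95%, and the fit was tested on simulated data. Plots were drawn with matplotlib 3.10.9.

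The members and lists were chosen with earlier results of these data known. Named genes are the 3 largest differences per direction, relative to all genes, among members whose arrays do not overlap, the P stalk, the genes linked to the anaemia, and the ends of the other lists. Rpsa, Rpl21, Rpl36, Rpl27a, Rps27a, Rpl15, Rps24, Myc, Rpl17 and the other examples without overlap between the shRNAs were picked after their values were seen. Replicate numbers mark the slide in the file headers. Deviations from group means of same-numbered arrays correlated at 0.67 (DEX), 0.86 (shRNA1), 0.74 (shRNA2) and 0.84 (between the shRNAs). The slide was therefore the block. Number and slide coincide in every group, so these correlations cannot tell an effect of the slide from cultures shared by number. Alternatives were the scaling (array median, quantile, normexp with an offset of 50, the authors' values), the filter on dim probes, the probe of a gene, the block, and leaving out each array. Probe positions come from the files (mm9), and with no annotation of that build used, exons and untranslated regions are not given. The number of arrays limits the precision. Some genes that the rule or the lists hold are counted but not reported here by name.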

Additional observations from a re-analysis of the deposited data

Results flagged for a closer look

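For 2 members, Rps18 and Rps4x, every array of one shRNA group lay on one side of the all-gene median difference and every array of the other on the opposite side. The share of all genes that meet this rule is not given, so the 2 members have no background to be set against. Both shRNA groups are compared with the same control arrays. With quantile normalization the shRNA1 difference of Rps18 was negative. Relative to all genes Rps18, a protein of the small subunit head, stood at 0.087 with shRNA1 (0.025 on slide 1 and 0.143 on slide 2) and at -0.110 with shRNA2 (-0.181 and -0.054). Rps4x, a small subunit protein encoded on the X chromosome, stood at 0.181 with shRNA1 (0.168 and 0.190) and at -0.051 with shRNA2 (-0.099 and -0.017). The difference between the shRNAs was itself tested and did not pass in either gene (each adjusted p by limma 1).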

How the results depend on the processing

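The count of members passing adjusted p 0.05 was 0 in all 4 comparisons under every alternative run. With the replicate block (slide as a term), the medians of the members relative to all genes were unchanged by construction at 0.029 (DEX), 0.118 (shRNA1), 0.037 (shRNA2) and 0.145 (shRNA1 minus shRNA2), and the block changed no member's call. Those medians moved with the scaling and the probe, and the cause was not tested. For DEX they were 0.004 with normexp, -0.010 in the authors' deposited values, -0.003 with no filter on dim probes, 0.005 with the median over probes and -0.001 with the dimmest probe of a gene (an alternative chosen after seeing the data). For shRNA1 they were -0.035 with quantile normalization, -0.031 with normexp, -0.041 with no filter, -0.088 in the authors' values, 0.072 with the median over probes and 0.014 with the dimmest probe. For shRNA2 they were -0.007 with quantile normalization, -0.045 with normexp, -0.070 in the authors' values, -0.085 with no filter, 0.014 with the median over probes and -0.032 with the dimmest probe. For shRNA1 minus shRNA2 they were -0.003 with quantile normalization, with and without the replicate block (the combination also added after seeing the data), 0.013 with normexp, 0.018 in the authors' values, 0.208 with no filter, 0.123 with the median over probes and 0.091 with the dimmest probe. Leaving out 1 array gave -0.227 (without control_noDEX replicate 2) to 0.254 (without control_DEX replicate 2) for DEX. It gave -0.062 (without control_DEX replicate 2) to 0.314 (without control_DEX replicate 1) for shRNA1, and -0.158 to 0.215 for shRNA2 without the same arrays. Between the shRNAs it gave -0.089 (without shRNA2_DEX replicate 2) to 0.248 (without shRNA2_DEX replicate 1). Each value with 1 array left out sets 2 slides against 1, so it also holds the gap between slides. An arm left with 1 array was assumed to vary like the other groups.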
